A study of Mus musculus with 12 samples.

Results

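S100 proteins are small calcium-binding proteins made only by vertebrates, and 10 of their genes were followed here in mouse fat: S100a1, S100a4, S100a6, S100a8, S100a9, S100a10, S100a11, S100a13, S100a16 and S100b. They were picked by gene symbol among the main probe sets of an Affymetrix mouse gene array, with their levels in the groups already known, and they are 10 of the 21651 genes measured. Their values are therefore given as a description, with a fitted log2 difference and its standard error (SE) and no p-value. The lists of other genes below were also chosen with earlier results known, so the adjusted p-values printed for them describe these data.

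The arrays fell into 4 groups of 3. These were white adipose tissue (WAT) of triple mutants, WAT of ob/ob mice, brown adipose tissue (BAT) of triple mutants and BAT of ob/ob mice. ob/ob mice lack the hormone leptin and become obese, and the triple mutants were ob/ob animals that, by their label (ob/ob/Cidea-/-/Cidec-/-), carry no Cidea or Cidec either, which encode lipid droplet proteins that promote droplet fusion. All mice were males of the strain C57, 4 months old and fed chow, so leptin deficiency was common to all 4 groups and no lean mouse was included. The labels name neither the white fat depot nor any pooling of animals, and do not state that different arrays stand for different mice, so the p-values below reflect the spread among these arrays alone, and that spread may be technical.

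Each S100 protein carries a pair of EF-hand motifs, the helix-loop-helix folds that hold calcium, and works mostly as a dimer. On binding calcium the dimer opens a surface that docks onto partner proteins such as annexins, myosin and kinases, while some family members are also released from cells and act on surface receptors such as RAGE (Ager) and Tlr4. In adipose tissue S100a4, S100a8 and S100a9 are known mainly from immune and stromal cells, whereas S100b is also made by rodent adipocytes.

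All levels below are log2 signals as the authors deposited them, listed in the order array 1, array 2, array 3. A unit of 1 is a doubling, and levels are compared only for the same gene. As a measure of background, the highest of 45 antigenomic control probe sets lay between 7.40 and 8.13 on the 12 arrays, and 19.5% to 32.3% of genes were above it. It was 7.40 to 7.57 in ob/ob WAT and 7.65 to 8.13 in the other groups, so this limit was lowest in ob/ob WAT. The median of the 45 controls was far lower, 3.23 to 3.57 over the arrays. Below, the controls means the highest of them on the same array. Cidea ranged over 8.42 to 10.03 in triple mutant WAT and 4.86 to 5.56 in ob/ob WAT, and over 11.29 to 11.39 in triple mutant BAT and 11.39 to 11.51 in ob/ob BAT. Cidec lay between 10.59 and 11.87 on all 12 arrays. Whether the probes lie inside or outside the deleted sequence is not known from the labels or files, so these signals check nothing about the genotypes. The mean of 10 brown adipocyte markers was 8.63 to 9.25 in triple mutant WAT and 5.99 to 6.50 in ob/ob WAT, and 9.87 to 10.23 in triple mutant BAT and 9.11 to 9.32 in ob/ob BAT. BAT arrays also differed in 12 skeletal muscle markers, whose mean spanned 6.57 to 10.64 in triple mutant BAT and 7.73 to 11.09 in ob/ob BAT.

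Between the genotypes the family split by member. In WAT, S100a4, S100a6 and S100a10 were lower in triple mutants and S100a1, S100a16 and S100b were higher, and in BAT S100a4, S100a6, S100a10 and S100a11 were lower. Here called means that limma's Benjamini-Hochberg adjusted p, taken over all genes, was below 0.05. In WAT 6 of 10 members were called, where 34.3% of all genes were called, with 3 members higher (17.6% of all genes) and 3 lower (16.7% of all genes). In BAT 4 of 10 were called, where 17.4% of all genes were called, and all 4 were lower, where 6.97% of all genes were lower and 10.4% higher. The genotypes did not overlap for 6 members in WAT (46.6% of all genes) and for 6 in BAT (35.5% of all genes), the 6 in BAT being the 4 called ones with S100a1 and S100b. Since the members were chosen with these contrasts in view, nothing is read from those counts. The median log2 difference of the 10 members was -0.01 in WAT and -0.18 in BAT, beside 0.04 and -0.03 for all genes.

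**Figure D1:**
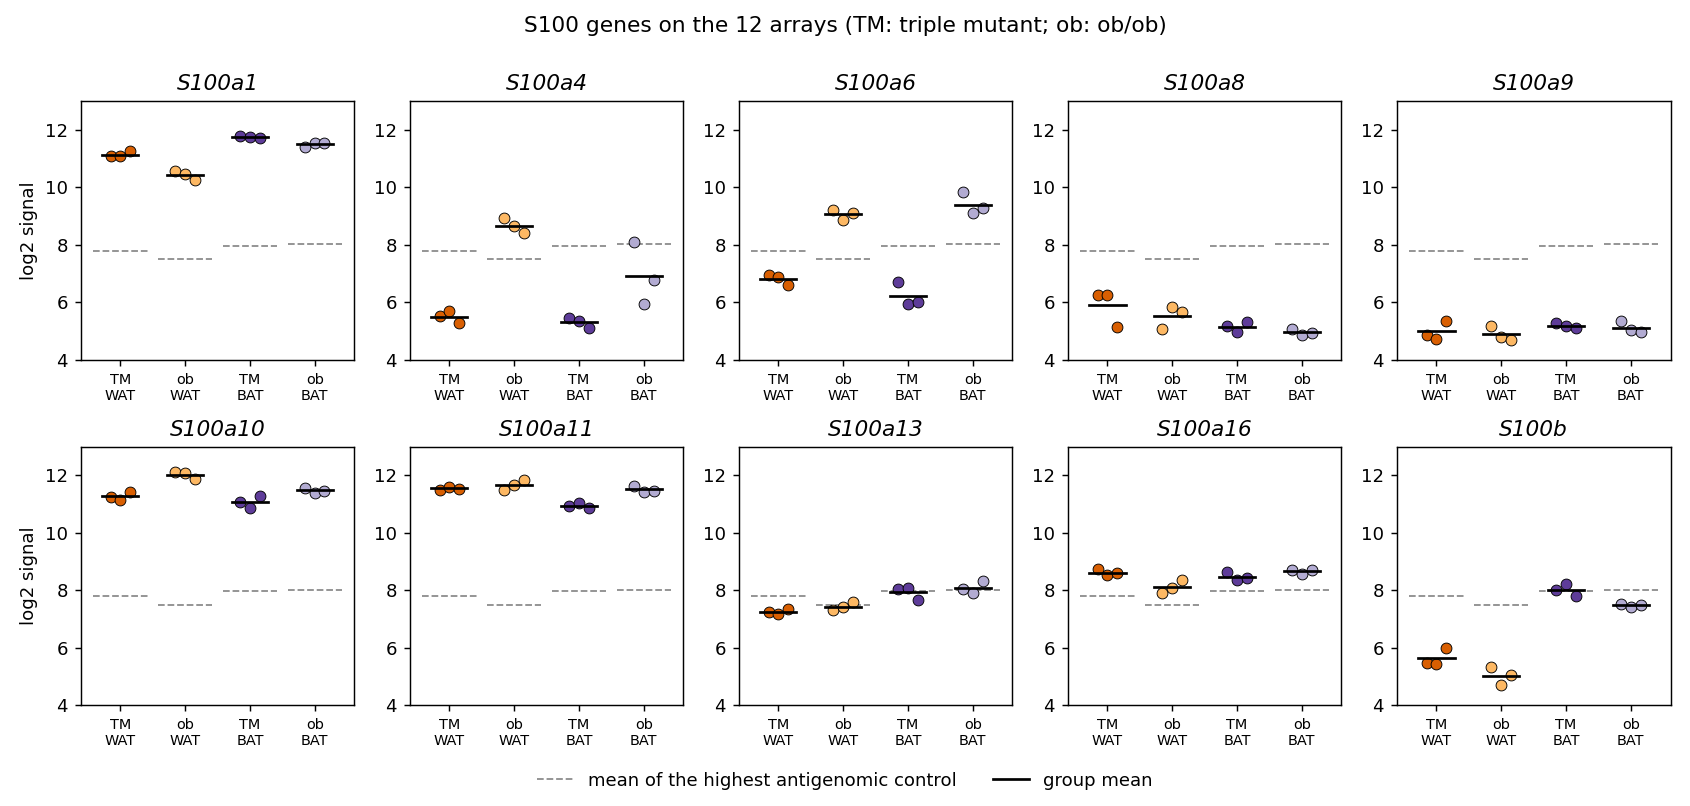
Log2 signal (y axis) of the 10 S100 genes on the 12 arrays, by group (x axis, TM for triple mutant and ob for ob/ob), with points for arrays, a bar for each group mean and a dashed line for the mean of the highest antigenomic control. S100a4 and S100a6 are the genes whose ob/ob WAT arrays stand above the dashed line while all 3 triple mutant WAT arrays stand below it, and S100a8 and S100a9 stay below it in all 4 groups.

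S100a4, also called metastasin or fibroblast-specific protein 1, binds non-muscle myosin and is abundant in macrophages and fibroblasts. In triple mutant WAT its levels were 5.54, 5.69 and 5.27, against 8.94, 8.65 and 8.41 in ob/ob WAT. In triple mutant BAT they were 5.47, 5.35 and 5.11, against 8.10, 5.93 and 6.77 in ob/ob BAT. The genotypes did not overlap in either tissue, but the 3 ob/ob BAT arrays were far apart, and of these array 1 alone exceeded its highest control. The log2 difference was -3.17 (SE 0.40) in WAT and -1.62 (SE 0.40) in BAT. All triple mutant arrays were below the controls, so in WAT the fold is only bounded, and S100a4 was at least 1.83-fold lower in triple mutants when their level is set to the mean of the highest control. In BAT the difference was -1.04 without ob/ob array 1 and -2.12 without ob/ob array 2, and its call was lost without triple mutant array 3 (-1.52) and with the 6 BAT arrays fitted alone.

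Macrophage markers moved with S100a4. Of 12 markers, 11 were called lower in triple mutants in WAT (16.7% of all genes) and 10 in BAT (6.97% of all genes). Adgre1 differed by -3.38 in WAT (limma adjusted p = 5.54e-06) and -1.67 in BAT (adjusted p = 0.00234), where triple mutants were below the controls. Itgax was below the controls on all triple mutant arrays and was at least 6.22-fold lower in triple mutants in WAT (adjusted p = 7.1e-06). Their mean over the 12 markers ranged over 7.45 to 7.71 in triple mutant WAT and 9.95 to 10.10 in ob/ob WAT. In triple mutant BAT it was 6.92 to 7.04, while the ob/ob BAT arrays 1, 2 and 3 had 9.17, 7.95 and 8.33, the same order as for S100a4. One marker, Cx3cr1, was never above the controls. The part of these cells in the S100a4 result was not tested, and in whole tissue fewer cells of a type and less RNA per cell cannot be told apart.

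S100a6, or calcyclin, binds annexin 11 and the calcyclin-binding protein Cacybp and is found in fibroblasts and many dividing cells. It had 6.95, 6.88 and 6.60 in triple mutant WAT, against 9.20, 8.88 and 9.10 in ob/ob WAT. In BAT it had 6.70, 5.95 and 6.03 in triple mutants, against 9.84, 9.10 and 9.27 in ob/ob. All 6 ob/ob arrays were above their highest control and all 6 triple mutant arrays were below it. The log2 difference was -2.25 (SE 0.22) in WAT and -3.18 (SE 0.22) in BAT, and S100a6 was at least 2.40-fold lower in triple mutants in WAT and at least 2.69-fold lower in BAT.

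Fibroblast and preadipocyte markers were lower beside S100a6, with 6 of 10 called lower in triple mutants in each tissue (16.7% of all genes in WAT and 6.97% in BAT). Col3a1, a fibrillar collagen, differed by -1.58 in WAT (limma adjusted p = 6.13e-06) and -1.08 in BAT (adjusted p = 0.000577). The mean of the 10 markers was 8.36 to 8.77 in triple mutant WAT and 9.33 to 9.37 in ob/ob WAT, and 7.95 to 8.20 in triple mutant BAT and 8.59 to 8.84 in ob/ob BAT. S100a6 and these markers did not keep the same order across groups, since ob/ob BAT and ob/ob WAT overlapped in S100a6 while the marker mean was lower on every ob/ob BAT array. Of the 10, Pi16 was never above the controls, and the part of these cells in the S100a6 result was not tested. The macrophage markers described above were lower in both tissues beside S100a6 too, and the fibroblast markers beside S100a4. The cell source of either gene was not tested.

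S100a4 and S100a6 lie close together on the plus strand of chromosome 3, with probe sets at 90407689 to 90409967 and at 90416816 to 90418337 (build NCBIM37), 10649 bases from the start of the first to the end of the second. S100a5, a member of the family between them, did not exceed the controls on any array and differed by 0.10 in WAT and -0.01 in BAT (limma adjusted p = 0.402 and 0.949). The promoter windows of the pair are shown because these 2 genes were called lower in triple mutants in both tissues. Each runs from 250 bases before to 50 bases after the gene start on the plus strand, from RefSeq on build GRCm38.p6, S100a4 at chr3:90603520-90603819 and S100a6 at chr3:90612644-90612943. Capitals mark the only match to the 4 motifs searched on both strands, a TATA box (TATAAA) in the S100a4 window, which 13.6% of 32851 promoter windows hold.
S100a4: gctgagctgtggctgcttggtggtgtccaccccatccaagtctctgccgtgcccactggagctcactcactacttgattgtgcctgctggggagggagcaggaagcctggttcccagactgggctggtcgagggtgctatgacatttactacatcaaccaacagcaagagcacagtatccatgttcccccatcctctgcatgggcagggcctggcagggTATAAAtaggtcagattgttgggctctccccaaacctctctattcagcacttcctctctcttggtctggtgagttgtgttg
S100a6: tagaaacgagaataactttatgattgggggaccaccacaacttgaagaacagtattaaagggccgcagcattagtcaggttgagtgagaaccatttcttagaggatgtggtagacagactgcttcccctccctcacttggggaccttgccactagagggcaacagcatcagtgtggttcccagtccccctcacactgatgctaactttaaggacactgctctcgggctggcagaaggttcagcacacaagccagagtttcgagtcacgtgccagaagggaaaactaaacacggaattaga
The S100a6 window holds none of the 4 motifs, the other 3 being the GC box GGGCGG (in 35.7% of windows), the AP-1 site TGANTCA (7.81%) and the PPAR response element, a direct repeat of AGGTCA with 1 base between the copies (0.0396%). A match is a string of letters and not a measured site.

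S100a10, or p11, has lost calcium binding and holds annexin A2 in a complex at the plasma membrane, with Ahnak as a further partner. Its levels were 11.26, 11.13 and 11.44 in triple mutant WAT, against 12.12, 12.10 and 11.87 in ob/ob WAT. They were 11.07, 10.86 and 11.29 in triple mutant BAT, against 11.58, 11.39 and 11.45 in ob/ob BAT. Neither tissue showed overlap between genotypes, and ob/ob WAT stood above the other 3 groups. The log2 difference was -0.75 (SE 0.12) in WAT and -0.40 (SE 0.12) in BAT, where the call was lost on leaving out any BAT array but triple mutant array 3 (-0.44 to -0.29) and with the 6 BAT arrays fitted alone.

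Both partners of S100a10 were lower in triple mutants as well. Anxa2, the annexin it binds, differed by -0.68 in WAT (limma adjusted p = 0.0138) and -0.64 in BAT (adjusted p = 0.0356), and its WAT call was lost without triple mutant array 2 (adjusted p = 0.0616). Its BAT call was lost on leaving out any BAT array but ob/ob array 2 (adjusted p = 0.0536 to 0.123). Ahnak, a giant scaffold protein, had 9.0, 9.06 and 8.72 in triple mutant WAT, against 9.89, 9.78 and 9.85 in ob/ob WAT, a difference of -0.91 (adjusted p = 3.62e-05). In BAT its difference was -0.94 (adjusted p = 0.000356), with no overlap between genotypes in either tissue.

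S100a11, or calgizzarin, binds annexin A1 and takes part in membrane repair. Its levels were 11.50, 11.59 and 11.54 in triple mutant WAT, against 11.51, 11.67 and 11.83 in ob/ob WAT, with overlapping groups. In triple mutant BAT they were 10.93, 11.04 and 10.87, against 11.64, 11.43 and 11.47 in ob/ob BAT. Triple mutant BAT stood below the other 3 groups, which overlapped. The log2 difference was -0.13 (SE 0.10) in WAT and -0.57 (SE 0.10) in BAT. These values come from the brighter of 2 probe sets that carry this symbol, placed on chromosome 18 by the deposited annotation. The probe set on chromosome 3 differed from it by at most 0.0485 on any array and gave -0.15 in WAT and -0.60 in BAT. Such similar probe sets may measure shared transcripts, so the source of the S100a11 signal is uncertain.

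Anxa1, the annexin partner of S100a11 and a regulator of inflammation, was lower in triple mutants in both tissues. It had 9.10, 9.12 and 9.35 in triple mutant WAT, against 11.85, 11.82 and 11.48 in ob/ob WAT. The difference was -2.53 in WAT (limma adjusted p = 1.18e-05) and -1.83 in BAT (adjusted p = 0.00077), whereas S100a11 itself was called in BAT and not in WAT. The difference between the WAT and BAT effects was not called for either gene, but that of S100a11 (-0.44) was called with the replicate block by genotype and number, when only genes with a mean of at least 5 were tested and without ob/ob WAT array 3 (-0.52). That of Anxa1 was called without triple mutant BAT array 3 (0.97, adjusted p = 0.0482).

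**Figure D2:**
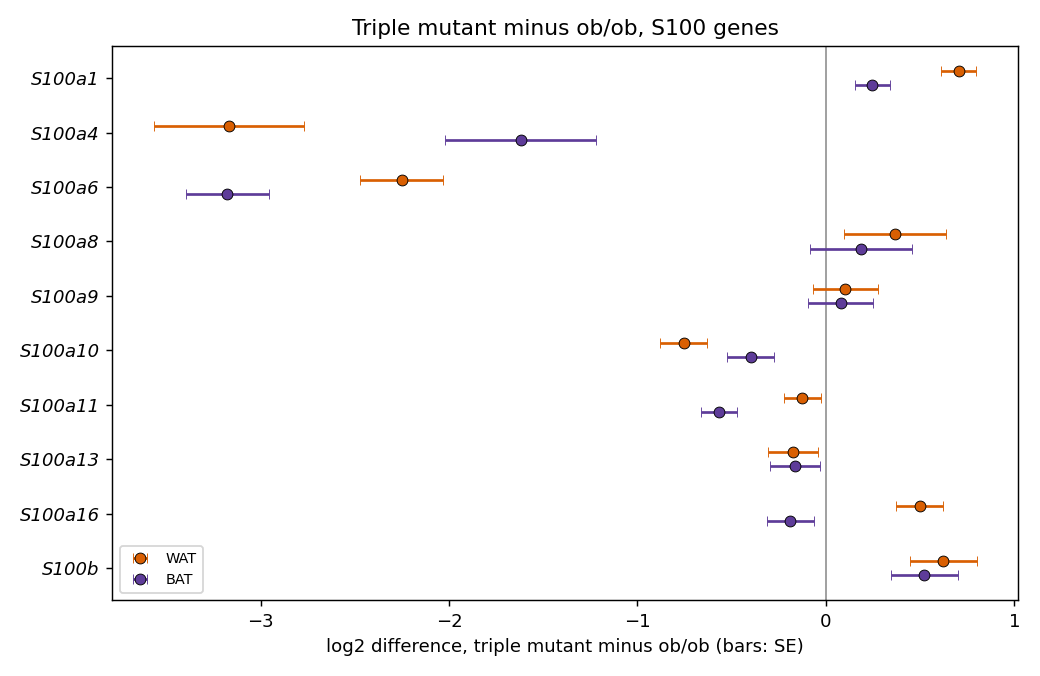
Fitted log2 difference, triple mutant minus ob/ob (x axis), of the 10 S100 genes (y axis) in WAT and BAT, with bars for the SE. S100a4 and S100a6 lie between -3.18 and -1.62, and the other 8 genes lie between -0.75 and 0.71.

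S100a1, the family member best known from heart and skeletal muscle, acts on the calcium pump and the calcium release channel of the sarcoplasmic reticulum. It had 11.07, 11.09 and 11.25 in triple mutant WAT, against 10.57, 10.46 and 10.26 in ob/ob WAT. In BAT it had 11.77, 11.75 and 11.72 in triple mutants, against 11.41, 11.53 and 11.55 in ob/ob. The 4 groups did not overlap at all, and their order from low to high was ob/ob WAT, triple mutant WAT, ob/ob BAT and triple mutant BAT. The log2 difference between genotypes was 0.71 (SE 0.09) in WAT, called, and 0.25 (SE 0.09) in BAT, not called. BAT exceeded WAT by 0.61 in triple mutants and by 1.07 in ob/ob.

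Skeletal muscle markers varied widely between BAT arrays beside S100a1. Their mean in triple mutant BAT arrays 1, 2 and 3 was 10.64, 8.46 and 6.57, while S100a1 stayed within 11.72 to 11.77. In ob/ob BAT the marker mean was 7.73, 11.09 and 10.82 beside S100a1 levels of 11.41, 11.53 and 11.55, array 1 being lowest in both. In WAT, where at most 1 of the 12 muscle markers exceeded the controls on any array, S100a1 was above them on all 6. The part of muscle in the S100a1 levels of BAT was not tested. Its target Ryr1, the calcium release channel of skeletal muscle, differed by -0.07 in WAT (limma adjusted p = 0.972) and -1.44 in BAT (adjusted p = 0.357), and the calcium pump Atp2a2 differed by -0.11 and -0.29 (adjusted p = 0.773 and 0.44). Ryr1 was below the controls on every WAT array and above them on 1 triple mutant BAT and 2 ob/ob BAT arrays. The sizes of its differences are therefore uncertain.

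S100a13 helps the growth factor Fgf1 leave the cell. It had 7.24, 7.20 and 7.35 in triple mutant WAT, against 7.31, 7.41 and 7.59 in ob/ob WAT. In BAT it had 8.05, 8.09 and 7.67 in triple mutants, against 8.06, 7.91 and 8.32 in ob/ob. Genotypes overlapped in both tissues, at -0.17 in WAT and -0.16 in BAT (SE 0.13 each). All BAT arrays exceeded all WAT arrays, with a BAT minus WAT difference of 0.67 in triple mutants and 0.66 in ob/ob. These levels sat close to the controls, with 0 of 3 triple mutant WAT arrays and 2 of 3 arrays in each other group above them.

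Fgf1, the cargo of S100a13, had 8.89, 9.12 and 8.92 in triple mutant WAT, against 5.39, 7.75 and 8.57 in ob/ob WAT, where the arrays were far apart. Its difference was 1.74 in WAT (limma adjusted p = 0.0395) and 1.32 in BAT (adjusted p = 0.152). With the 6 arrays of a tissue fitted alone the calls changed places, at adjusted p = 0.105 in WAT and 0.0108 in BAT. The WAT call was also lost without any 1 triple mutant WAT array (adjusted p = 0.0781 to 0.0987). The size of the WAT difference ranged from 0.82 without ob/ob WAT array 1 to 2.41 without ob/ob WAT array 3.

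S100a1 and S100a13 are neighbours on opposite strands, with probe sets at 90314956 to 90318314 (minus) and 90318357 to 90328505 (plus) of chromosome 3 (NCBIM37) and 42 bases between them. Their promoter windows (GRCm38.p6, chr3:90514281-90514580 on the minus strand for S100a1 and chr3:90514185-90514484 on the plus strand for S100a13) overlap by 204 bases. They are shown because this shared stretch is common to a gene that differed between genotypes in WAT and a gene whose genotypes overlapped. Capitals mark the shared bases, read on opposite strands.
S100a1: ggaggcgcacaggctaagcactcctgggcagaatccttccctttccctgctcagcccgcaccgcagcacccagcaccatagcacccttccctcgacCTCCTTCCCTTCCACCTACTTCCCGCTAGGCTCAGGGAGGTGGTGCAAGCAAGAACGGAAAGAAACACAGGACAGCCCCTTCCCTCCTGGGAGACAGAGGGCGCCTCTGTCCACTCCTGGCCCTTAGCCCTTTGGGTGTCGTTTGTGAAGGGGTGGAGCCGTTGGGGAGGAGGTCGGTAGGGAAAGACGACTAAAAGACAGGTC
S100a13: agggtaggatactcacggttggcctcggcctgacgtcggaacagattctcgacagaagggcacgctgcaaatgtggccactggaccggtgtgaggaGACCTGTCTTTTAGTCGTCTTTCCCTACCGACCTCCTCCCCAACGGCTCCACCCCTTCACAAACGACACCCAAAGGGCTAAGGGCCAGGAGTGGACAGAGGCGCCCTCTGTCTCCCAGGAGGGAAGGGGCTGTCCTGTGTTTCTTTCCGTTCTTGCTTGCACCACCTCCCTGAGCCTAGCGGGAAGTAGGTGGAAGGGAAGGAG
Neither window holds any of the 4 motifs. Both genes were higher in BAT than in WAT in each genotype, and in WAT S100a1 was higher in triple mutants by 0.71 while S100a13 differed by -0.17. In WAT S100a13 sat close to or below the controls, so the size of its difference there is uncertain.

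S100a16 is a broadly expressed member of the family that has been linked to adipogenesis in mouse preadipocytes. It had 8.74, 8.53 and 8.59 in triple mutant WAT, against 7.91, 8.08 and 8.38 in ob/ob WAT. In BAT it had 8.63, 8.35 and 8.42 in triple mutants, against 8.73, 8.56 and 8.69 in ob/ob. It was above the controls on all 12 arrays, and ob/ob WAT was the low group, overlapping only with triple mutant BAT. The log2 difference was 0.50 (SE 0.12) in WAT, called and without overlap, and -0.19 (SE 0.12) in BAT, where the genotypes overlapped. S100a14, a neighbour of S100a16 in the same block of genes, differed by 0.02 in WAT (limma adjusted p = 0.891) and was never above the controls.

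S100b is known as a glial protein and, in mouse brown fat, as an adipocyte product released with the help of a calsyntenin 3 isoform that promotes nerve ingrowth. It had 5.49, 5.46 and 6.02 in triple mutant WAT, against 5.34, 4.72 and 5.04 in ob/ob WAT, all below the controls. In BAT it had 8.0, 8.22 and 7.79 in triple mutants, against 7.53, 7.43 and 7.48 in ob/ob. Every BAT array exceeded every WAT array, and the genotypes did not overlap in either tissue. The tissue difference, BAT minus WAT, was 2.35 in triple mutants and 2.45 in ob/ob (SE 0.18 each), and of the 6 BAT arrays only triple mutant arrays 1 and 2 exceeded the highest control. Between genotypes the difference was 0.62 (SE 0.18) in WAT, called, and 0.52 (SE 0.18) in BAT, not called. The WAT call was lost without triple mutant array 3 (0.44) or ob/ob array 2 (0.47) and with the 6 WAT arrays fitted alone, and the BAT difference was called with the 6 BAT arrays fitted alone.

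Most Schwann cell markers stayed below the controls beside S100b. Of 10 markers 8 were never above them, Sox10 among these, while Pmp22 was above them on all 12 arrays. Even so, 5 of 10 were called higher in BAT than in WAT in triple mutants (6.45% of all genes) and 7 of 10 in ob/ob (18.2% of all genes), with 1 (Pmp22) called lower in both. Their mean was 6.50 to 6.74 in triple mutant BAT and 6.12 to 6.18 in triple mutant WAT, and 6.38 to 6.44 in ob/ob BAT and 5.90 to 6.07 in ob/ob WAT. Clstn3, the calsyntenin gene, was never above the controls and differed by 0.65 in WAT (limma adjusted p = 0.00452) and 0.40 in BAT (adjusted p = 0.0892). Its BAT difference was called with the additive replicate block (adjusted p = 0.0434) and with the 6 BAT arrays fitted alone (adjusted p = 0.0289). The probe set does not tell the isoforms of Clstn3 apart as far as the annotation shows. Of 10 brown adipocyte markers, 7 were called higher in BAT and 1 lower in triple mutants (6.45% and 7.93% of all genes). In ob/ob 9 were called higher (18.2%). Their median BAT minus WAT difference was 1.40 in triple mutants and 2.51 in ob/ob, beside 0.34 and 0.35 for the Schwann cell markers. The part of Schwann cells or brown adipocytes in the S100b result was not tested.

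Adipocyte markers were higher in triple mutant WAT beside S100a1, S100a16 and S100b. Of 10 adipocyte markers 9 were called higher there and of 10 brown adipocyte markers 8 (17.6% of all genes), while in BAT 2 adipocyte and 3 brown adipocyte markers were called higher (10.4% of all genes). The mean of the adipocyte markers was 11.56 to 11.67 in triple mutant WAT, against 9.84, 10.49 and 10.82 in ob/ob WAT, and 11.34 to 11.40 in triple mutant BAT, against 11.08 to 11.13 in ob/ob BAT. Over the ob/ob WAT arrays S100a16 was ordered as this mean was, S100a1 was ordered the other way round, and S100b in neither way. The part of adipocytes in these results was not tested.

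**Figure D3:**
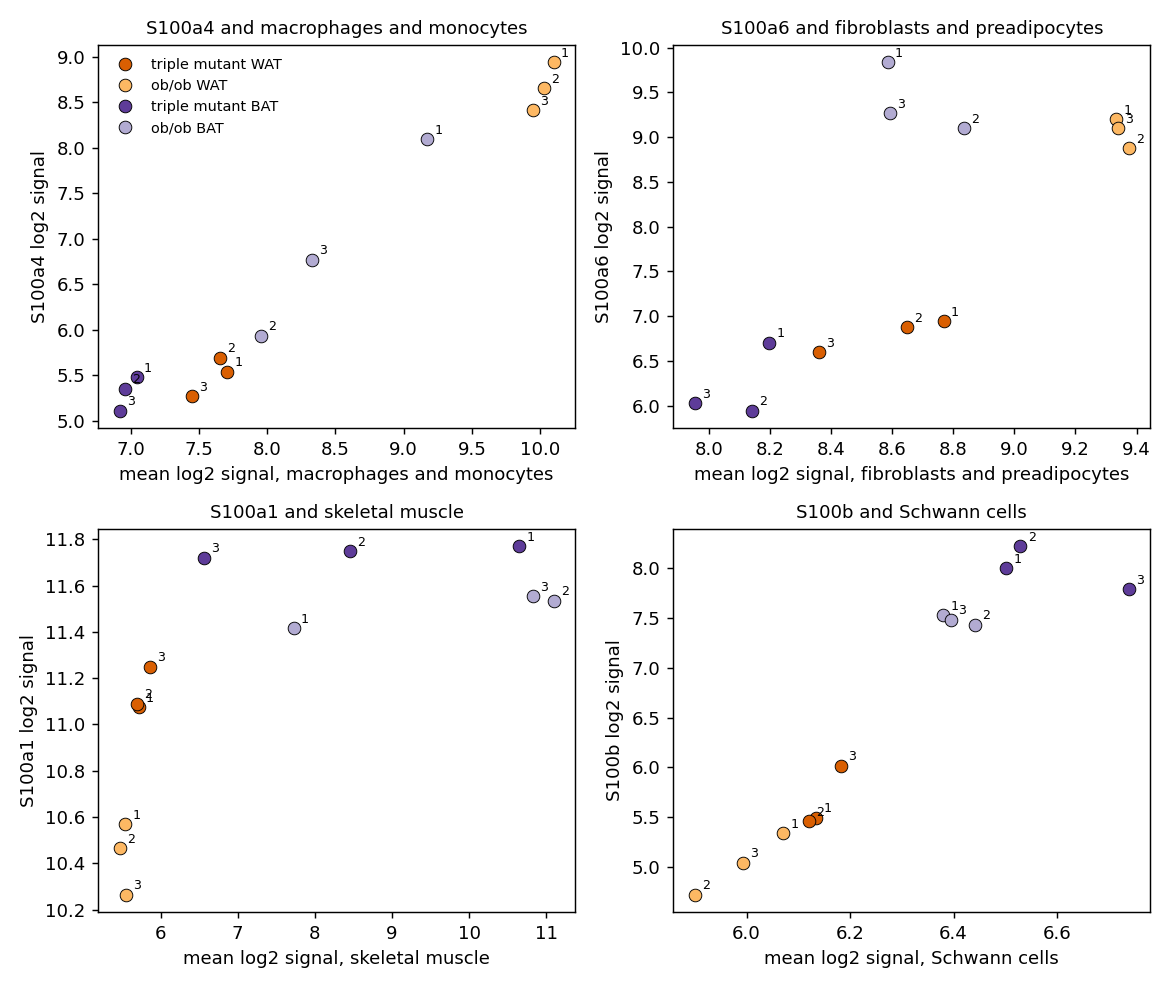
Log2 signal of S100a4, S100a6, S100a1 and S100b (y axes) against the mean log2 signal of a marker list (x axes: macrophages and monocytes, fibroblasts and preadipocytes, skeletal muscle, Schwann cells), 1 point per array, numbered by array within its group. Triple mutant BAT arrays spread from 6.57 to 10.64 in muscle markers at S100a1 levels of 11.72 to 11.77, and ob/ob BAT arrays keep the same order for S100a4 and the macrophage markers.

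S100a8 and S100a9 form calprotectin, the abundant cytosolic complex of neutrophils that is released in inflammation and acts on Tlr4 and RAGE. Neither gene exceeded the controls on any of the 12 arrays. S100a8 had 6.27, 6.26 and 5.16 in triple mutant WAT, against 5.08, 5.83 and 5.67 in ob/ob WAT. It had 5.17, 4.97 and 5.30 in triple mutant BAT, against 5.08, 4.88 and 4.94 in ob/ob BAT. Genotypes overlapped in both tissues, and the log2 difference was 0.37 (SE 0.27) in WAT, or 0.74 and called without triple mutant array 3. S100a9 spanned 4.74 to 5.37 in triple mutant WAT and 4.70 to 5.19 in ob/ob WAT, and 5.13 to 5.29 in triple mutant BAT and 4.98 to 5.34 in ob/ob BAT, a difference of 0.10 in WAT and 0.08 in BAT. Of 12 neutrophil markers, 11 were likewise never above the controls, including Ly6g, Mpo and Elane, and only Lcn2, which adipocytes also make, was.

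Between tissues, S100b and S100a1 stood higher in BAT and S100a4 and S100a10 stood lower in BAT of ob/ob mice. In triple mutants 4 of 10 members were called, where 14.4% of all genes were called: S100a1, S100a13 and S100b higher in BAT (6.45% of all genes) and S100a11 lower (7.93% of all genes). In ob/ob 6 of 10 were called, where 37.2% of all genes were called: S100a1, S100a13, S100a16 and S100b higher in BAT (18.2% of all genes) and S100a4 and S100a10 lower (19.0% of all genes). The tissues did not overlap for 4 members in triple mutants (32.7% of all genes) and for 7 in ob/ob (52.2% of all genes), S100a8 being the one not called. Nothing is read from these counts, for the reason given above, and both comparisons use arrays that the genotype comparisons also use. The fit treated WAT and BAT arrays as independent, although those sharing a genotype and a number were correlated. S100a4 differed by -0.19 in triple mutants and -1.74 in ob/ob (SE 0.40 each), and S100a10 by -0.20 and -0.56 (SE 0.12 each). S100a6 differed by -0.58 in triple mutants and 0.34 in ob/ob (SE 0.22 each), neither called, with overlapping tissues in both. S100a4 and S100a6 were below the controls on all triple mutant arrays, so the size of any tissue difference there is uncertain. In ob/ob BAT S100a4 was above them on 1 of 3 arrays, so the size of its ob/ob difference is uncertain. S100b exceeded them on triple mutant BAT arrays 1 and 2 alone, so the sizes of its tissue differences are uncertain too. S100a11 differed by -0.59 in triple mutants and -0.15 in ob/ob (SE 0.10 each).

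**Figure D4:**
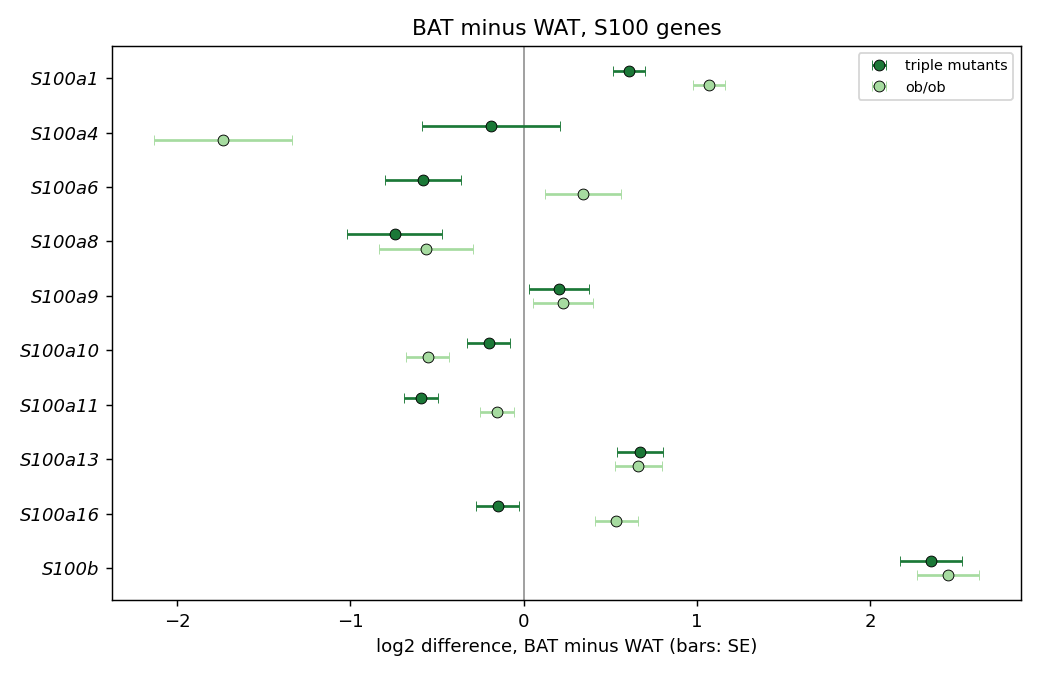
Fitted log2 difference, BAT minus WAT (x axis), of the 10 S100 genes (y axis) in triple mutants and in ob/ob, with bars for the SE. S100b lies at 2.35 in triple mutants and 2.45 in ob/ob, while S100a4 lies at -0.19 in triple mutants and -1.74 in ob/ob. Triple mutant signals of S100a4 were below the controls in both tissues, as were WAT signals of S100b in both genotypes.

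How far the genotype effect depended on tissue was given by the BAT effect minus the WAT effect. Of the 10 members 2 were called, S100a1 (-0.46, SE 0.13) and S100a16 (-0.69, SE 0.17), where 13.9% of all genes were called. WAT and BAT arrays that share a genotype and a number were correlated in their deviations. With that pairing as a random block 5 members were called, adding S100a4 (1.55, SE 0.57 without the block), S100a6 (-0.93, SE 0.31) and S100a11 (-0.44, SE 0.14). S100a4 and S100a6 were below the controls on all triple mutant arrays, so the sizes of their values are uncertain. With each array centred on its median 1 was called, S100a16, and S100a1 was -0.35, and with the additive replicate block S100a1 also lost its call (-0.46). In each of these settings the number of all genes called stayed within 1.5 times of that in the main fit. Leaving out any one array but ob/ob WAT array 1 and ob/ob BAT array 1 ended the call of S100a1, and 6 of 12 omissions ended that of S100a16.

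The family is laid out in a compact block of 184.7 kb on chromosome 3 that holds 12 measured genes, all of them S100 genes, with S100a10 and the second S100a11 probe set farther along and S100b on chromosome 10. Within the block the genes that were called between genotypes were S100a1 and S100a16 near one end and S100a4 and S100a6 in the middle. S100a13, S100a14, S100a3, S100a2 and S100a5 lie between them and were not called. All of these but S100a13 were never above the controls, so their lack of a call does not show that they were unchanged. The other 7 S100 genes on the array (S100a2, S100a3, S100a5, S100a7a, S100a14, S100g and S100z) never exceeded the controls on any array. None of the 7 was called between genotypes in either tissue (limma adjusted p from 0.091 to 0.99), where 34.3% of all genes were called in WAT and 17.4% in BAT. Between tissues S100a7a (0.33, adjusted p = 0.00879) and S100z (0.33, adjusted p = 0.0227) were called higher in ob/ob BAT than in ob/ob WAT, and the S100z call was lost with these 6 arrays alone (adjusted p = 0.0613) and without ob/ob WAT array 1 or 2 or ob/ob BAT array 1 (adjusted p = 0.05 to 0.0866).

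**Figure D5:**
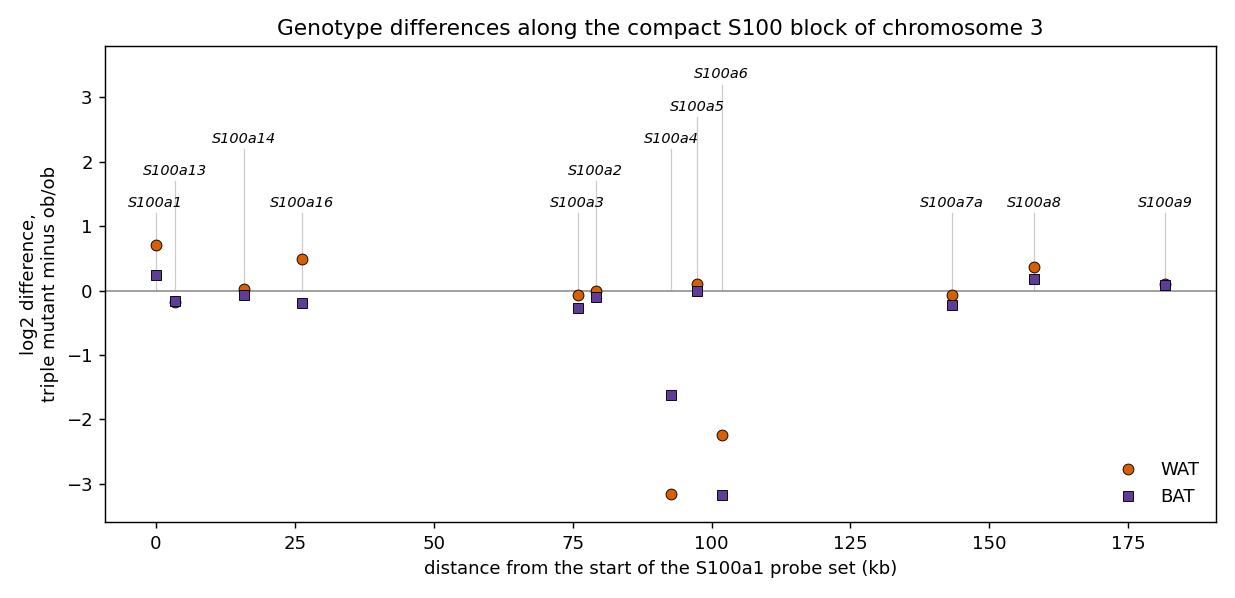
Log2 difference, triple mutant minus ob/ob (y axis), of the 12 S100 genes of the compact block on chromosome 3 in WAT and BAT, against distance from the start of the S100a1 probe set in kb (x axis). S100a4 and S100a6 lie between -3.18 and -1.62, with triple mutant signals below the controls. S100a5 between them, never above the controls, lies at 0.10 in WAT and -0.01 in BAT.

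Of 8 receptors that S100 proteins are known to act on, 5 were called lower in triple mutant WAT (16.7% of all genes) and 1 higher (17.6%), and in BAT 1 was called lower (6.97%). Tlr4, the receptor of S100a8 and S100a9, had 7.29, 7.07 and 7.19 in triple mutant WAT, against 8.54, 8.56 and 8.35 in ob/ob WAT, at least 1.61-fold lower in triple mutants (limma adjusted p = 2.81e-06). Its co-receptors were lower in WAT too, Ly96 at least 2.05-fold (adjusted p = 7.13e-05) and Cd14 at least 1.21-fold (adjusted p = 2.53e-05). These folds are bounds because all 3 genes were above the controls on the ob/ob WAT arrays alone. In BAT, where all were below the controls in both genotypes, none was called (adjusted p = 0.912 for Tlr4, 0.861 for Ly96 and 0.0571 for Cd14), and the size of any change there is uncertain. Cd14 was called lower in BAT without triple mutant BAT array 3 (adjusted p = 0.0201) and when only genes with a mean of at least 5 were tested (adjusted p = 0.0452).

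The other 5 receptors did not move one way in WAT. Nptn, a neuroplastin that binds S100a8 with S100a9, was lower (-0.63, limma adjusted p = 0.000307), Alcam, an adhesion receptor reported to bind S100b, was lower (-1.26, adjusted p = 0.0448), and Bsg, a receptor of S100a9, was higher (0.40, adjusted p = 0.00439). The Alcam call was lost without any one of 5 of the 6 WAT arrays (adjusted p up to 0.16) and when WAT arrays were quantile normalized on their own (adjusted p = 0.0529). Cd36, the fatty acid carrier that takes up arachidonic acid bound to S100a8 with S100a9, differed by -0.17 (adjusted p = 0.111). Ager, which encodes RAGE, was never above the controls and was called in BAT (-0.36, adjusted p = 0.0342) and not in WAT (-0.12, adjusted p = 0.435). Its BAT call was lost with the additive replicate block (adjusted p = 0.0531), with quantile normalization within BAT (adjusted p = 0.102), with the BAT arrays alone (adjusted p = 0.0732) and on leaving out 4 of the 6 BAT arrays in turn (adjusted p = 0.0661 to 0.122).

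Among 20 binding partners, 4 were called higher (17.6% of all genes) and 7 lower (16.7%) in WAT, and 4 higher (10.4%) and 4 lower (6.97%) in BAT. Myh9, the non-muscle myosin that S100a4 binds, had 9.43, 9.33 and 9.12 in triple mutant WAT, against 10.38, 10.16 and 10.15 in ob/ob WAT, a difference of -0.94 (limma adjusted p = 0.000133). In BAT it differed by -0.68 (adjusted p = 0.0045). The S100a6 partner Anxa11 was lower in WAT (-0.68, adjusted p = 0.00126) and differed by 0.06 in BAT (adjusted p = 0.778). Another S100a6 partner, Cacybp, differed by -0.20 in WAT (adjusted p = 0.212) and was called higher in BAT (0.36, adjusted p = 0.0462), a call lost on leaving out 5 of the 6 BAT arrays in turn, with quantile normalization within BAT (adjusted p = 0.161) and with the BAT arrays alone (adjusted p = 0.0963). Neither was called lower in BAT, where S100a6 differed by -3.18. Stk38, a kinase that S100b binds, differed by -0.04 in WAT (adjusted p = 0.775) and was called higher in BAT (0.33, adjusted p = 0.031), a call lost on leaving out 4 of the 6 BAT arrays in turn, with quantile normalization within BAT (adjusted p = 0.109) and with the BAT arrays alone (adjusted p = 0.075).

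Of 22 other EF-hand calcium binders, 8 were called lower (16.7% of all genes) and none higher (17.6%) in triple mutant WAT, and 6 lower (6.97%) and 1 higher (10.4%) in BAT. Efhd2, a calcium sensor of immune cells, differed by -2.53 in WAT (limma adjusted p = 3.98e-05) and -1.17 in BAT (adjusted p = 0.0161), where all triple mutant arrays were below the controls. Lcp1, the actin bundler of leukocytes, differed by -2.09 (adjusted p = 0.00122) and -1.44 (adjusted p = 0.025). The median difference of this list was -0.28 in WAT and -0.11 in BAT, beside -0.01 and -0.18 for the 10 S100 genes and 0.04 and -0.03 for all genes.

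The genes whose levels were most like each member over the 12 arrays were named by Pearson's r among 10974 genes with a mean of at least 6. S100a4 was most like Hcls1 (r = 0.995), Capg, Dok2, Adam8 and Myo1f, with the fifth at 0.993. S100a6 was most like Plekhg2 (0.976), Sf3b3 and Csf1, and S100a10 most like Trpv2 (0.976), Elovl1 and Cd14. S100a1 was most like Etfa (0.987), Zfp641 and Ndufb2, S100b most like Prkag2 (0.977), Hddc3 and Gpd2, S100a11 most like Col15a1 (0.962), S100a16 most like Efnb1 (0.961) and S100a13 most like Mypop (0.952). S100a8 and S100a9 had lower values at the top, 0.921 with Plet1 and 0.819 with Ap1m1. These r values describe 12 arrays that share 4 groups and a common normalization.

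The authors' deposited table of genes changed in WAT, with 5945 entries beside 35556 probe sets on each array, lists 4 of the 10 members. It gives S100a4 a log2 change of -2.73, S100a6 -2.14, S100a10 -0.62 and S100a1 0.64. The authors' deposited table for BAT, with 1164 entries, lists S100a6 alone, at -2.88. Every listed value was smaller in size than the fitted one. The fitted values were -3.17 for S100a4, -2.25 for S100a6, -0.75 for S100a10 and 0.71 for S100a1 in WAT. For S100a6 in BAT the fitted value was -3.18. The rule behind the authors' entries was not applied here, and the reason for the smaller values was not tested.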

How the data were processed

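RNA of WAT and BAT was measured on Affymetrix MoGene-1_0-st-v1 arrays. The authors deposited log2 signals of 35556 probe sets on each array, and the submitters' processing notes name RMA (a background, quantile and probe summary method) and limma, without versions. Symbols, positions and categories came from the annotation in the authors' expression table, where NCBIM37 is named for 2980 probe sets. That table also holds 12 array columns that match no sample label and were not used. The authors' deposited tables of changed genes hold, per the file headers, a log2 change for each entry and its size as a fold (ratio).

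Of 28350 main probe sets 25004 named 1 gene. The probe set with the highest mean stood for each of 21651 genes, 1802 of which had several. Symbols matched the given RefSeq table directly for 18663 genes, through an older symbol for 2207 and not for 781. A 4-group model was fitted to all 12 arrays by lmFit and eBayes of limma 3.58.1 under R 4.3.3 (two-sided, 8 residual and 3.47 prior degrees of freedom), with Benjamini-Hochberg adjustment over all genes, and checked on simulated data. The contrasts set triple mutants against ob/ob within WAT and within BAT, took the difference of both, and set BAT against WAT within a genotype. The number of arrays limits the precision. Replicate numbers recur across groups. Arrays of the same genotype and number correlated across tissues in their deviations from group means (r = 0.15 to 0.22 in all 6 pairs), whereas arrays of the same number in different genotypes had r from -0.43 to 0.11, with -0.43, -0.24 and -0.23 for the BAT pairs. Pairing was accepted where every r was over 0.1, so the number was taken to pair tissues within a genotype, from the data and not from the labels. The main fit held no block and treated the 12 arrays as independent. Its SEs, calls and p-values for contrasts between tissues therefore leave this pairing out, and the blocks were run as alternatives only.

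Alternatives were replicate blocks, quantile normalization within a tissue, median centring, the 6 arrays of a comparison alone, trend and robust settings, a minimum mean of 5, the mean of all probe sets of a gene, each array left out in turn and, chosen after seeing the data, the chromosome 3 probe set of S100a11. Promoter windows were available for 9 of the 10 members (not S100a10). Named genes were all members, the receptors, the other S100 genes, the known partners, up to 4 called genes with the largest difference from each other list, and the 5 genes most like each member, leaving out predicted genes, RIKEN clones, small RNAs and pseudogenes. Some genes the rule allows are left unnamed. The members and lists were chosen with earlier results of these data known, and called genes were named for their large differences. The adjusted p-values of list genes are therefore not independent support. Plots used matplotlib 3.10.9 (Python 3.11.15).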

Additional observations from a re-analysis of the deposited data

Results flagged for a closer look

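The genotype effect (triple mutant minus ob/ob) was called as different between tissues in the fit of all 12 arrays for the genes given next. Each value is the BAT effect minus the WAT effect on the log2 scale. S100a1 had -0.46, with genotype effects of 0.25 in BAT and 0.71 in WAT. It lost its call with the additive replicate block, with each array centred on its median and in 10 of 12 omissions of an array. S100a16 had -0.69, with effects of -0.19 in BAT and 0.50 in WAT, and lost its call in 6 of 12 omissions. Both are members chosen with their levels known, so these values are a description.

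Of the receptors, Tlr4 had 1.28 (limma adjusted p = 0.000701), Ly96 1.40 (adjusted p = 0.00417), Cd14 1.38 (adjusted p = 0.0136) and Nptn 0.52 (adjusted p = 0.0253). Of the S100a6 partners, Anxa11 had 0.75 (adjusted p = 0.0196) and Cacybp 0.56 (adjusted p = 0.0386). On leaving out each array in turn, Tlr4, Ly96 and Cd14 kept their calls in all 12 omissions, Nptn lost its call in 5, Anxa11 in 1 and Cacybp in 9. With the mean of all probe sets of a gene Anxa11 had 0.33 (adjusted p = 0.181). Tlr4, Ly96 and Cd14 were above the controls in ob/ob WAT alone, so the sizes of their differences rest on signals below the controls in the other 3 groups.

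Of the other genes named, Efhd2 had 1.36 (adjusted p = 0.0448), Itgax 2.56 (adjusted p = 0.0124), Adgre1 1.71 (adjusted p = 0.0146) and Hrnr -0.59 (adjusted p = 0.0308). Hrnr was never above the controls. Itgax was below them on all triple mutant arrays and above them on 1 of 3 ob/ob BAT arrays. Efhd2 and Adgre1 were below them on all triple mutant BAT arrays. The sizes of these differences thus rest in part on signals below the controls, and these genes were not refitted with an array left out.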

How the results depend on the processing

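Of 2597 values recomputed under alternatives, 2463 kept their side of the threshold (94 of them, all uncalled, with the other sign), 95 kept their direction and lost the call, 39 gained one, and none reversed a call. The count of S100 genes whose genotype effect differed between tissues was 2, and became 5 with the replicate block by genotype and number as a random effect (block correlation 0.205), 1 with each array centred on its median, and 0 to 3 on leaving out each array. Neither replicate block moved any other count of members or of all genes by more than 1.5 times. Median centring did not move the count of all genes for the difference of effects by more than 1.5 times either. On leaving out 1 array, members called ranged over 5 to 6 for genotype in WAT, 3 to 3 in BAT, 4 to 5 for tissue in triple mutants and 6 to 6 in ob/ob. All genes called ranged over 5984 to 7069 for genotype in WAT, beside 7427, and over 5931 to 7714 for tissue in ob/ob, beside 8060. All genes called for the difference of effects, 3002 with all arrays, ranged over 1778 to 3399, where ob/ob WAT array 1 left out gave 1778, ob/ob BAT array 3 gave 1834 and ob/ob WAT array 2 gave 1849. For genotype in BAT they ranged over 2466 (without triple mutant BAT array 3) to 3787, beside 3760. For tissue in triple mutants they ranged over 1836 to 3589, beside 3112, with 1836 without triple mutant WAT array 1 and 1841 without triple mutant WAT array 2. The cause was not tested, beyond the smaller number of arrays. S100a8 was called for genotype in WAT (0.74) and for tissue in triple mutants (-1.12) without triple mutant WAT array 3. S100a6 was called for tissue in triple mutants without triple mutant BAT array 1 (-0.82) and with the additive replicate block. Signals below the highest control limit S100a4, S100a6, S100a8, S100a9, S100a13 and S100b.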

Other observations

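Lcn2, a lipocalin made by neutrophils and adipocytes, varied widely within the WAT groups. It had 10.78, 10.53 and 8.38 in triple mutant WAT arrays 1, 2 and 3, beside S100a8 levels of 6.27, 6.26 and 5.16 on the same arrays. It had 8.57, 10.17 and 10.35 in ob/ob WAT arrays 1, 2 and 3, beside S100a8 levels of 5.08, 5.83 and 5.67. In both groups the array lowest in Lcn2 was the array lowest in S100a8. S100a8 was below the controls on all of these arrays. In ob/ob WAT Lcn2 was highest on array 3 and S100a8 on array 2. The mean of 8 mesothelium and epithelium markers kept the order of S100a8 in both groups. It was 7.17, 7.08 and 6.26 in triple mutant WAT and 5.76, 6.59 and 5.98 in ob/ob WAT. Of these 8 markers 6 were never above the controls. The part of any cell type in these S100a8 levels was not tested.

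Fused-type S100 genes, which join an S100 domain to long repeats and serve in the skin barrier, were measured by 6 genes (Flg2, Hrnr, Rptn, Crnn, Tchh and Tchhl1). None exceeded the controls on any array, and none was called between genotypes in WAT or BAT, while the difference of the 2 effects was called for Hrnr (-0.59).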
